A study of Rattus norvegicus with 2 samples.

Results

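The feedback inhibitors of MAP kinase signalling described here are 10 genes of the Dusp, Sprouty and Spred families, namely Dusp4, Dusp5, Dusp6, Dusp7, Dusp8, Dusp10, Spry1, Spry4, Spred1 and Spred2. They were selected by name from a table of 14913 genes, and all 10 had reads in both libraries, with 198 or more reads per gene over the pair. RNA was sequenced from RBL-2H3 cells, a tumour line of rat basophils that responds to IgE through its high-affinity receptor. One library came from untreated wild-type cells and the other from wild-type cells incubated with IgE. The labels give neither the dose nor the length of the incubation, and whether an antigen was added to crosslink the bound IgE is not given in the sources used here. Each group was 1 library of 1 cell line, so no difference below has a replicate check and no test between conditions was possible.

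MAP kinases are switched on by phosphorylation of a threonine and a tyrosine, and the dual-specificity phosphatases encoded by the Dusp genes switch them off by removing both phosphates. Dusp4, Dusp5, Dusp6 and Dusp7 act on ERK, Dusp4 also on JNK and p38, while Dusp8 and Dusp10 act mainly on JNK and p38. Sprouty and Spred proteins act further upstream, where they restrain the activation of Ras and Raf, Spred proteins by bringing the Ras inactivator neurofibromin to the membrane. Several of these genes are transcribed in response to the ERK activity that their products limit, and in mast cells and basophils all 3 kinase routes are engaged when the IgE receptor is crosslinked.

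The promoter sequences bear on this transcriptional loop, and a pair of them is shown. RefSeq (build GRCr8) gave a promoter, from 250 bases before to 50 bases after the annotated start, for 9 of the 10 members. No promoter was at hand for Dusp4. The CArG box is the motif bound by serum response factor, which drives many immediate early genes together with ERK-activated ETS partners. Of 27457 rat promoters of this length, 1.64% held a CArG box, and among the members Dusp5 held one. Dusp5 had 2 of them, side by side. CCATATTTGG lay 82 to 73 bases before the start and CCTTATATGG lay 72 to 63 bases before it. The 250 bases upstream of Dusp5 (chr1:262543524-262543773, plus strand) are printed with the CArG boxes in capitals, and those of Spry1 (chr2:122485097-122485346, plus strand), the member with the highest fold, are printed beside them with the GC box, GGGCGG, in capitals.
Dusp5: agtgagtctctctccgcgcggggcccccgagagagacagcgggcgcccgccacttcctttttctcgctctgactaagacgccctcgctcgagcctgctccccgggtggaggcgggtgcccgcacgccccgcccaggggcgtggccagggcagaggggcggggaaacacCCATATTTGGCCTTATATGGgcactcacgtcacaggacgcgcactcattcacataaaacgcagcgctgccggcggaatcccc
Spry1: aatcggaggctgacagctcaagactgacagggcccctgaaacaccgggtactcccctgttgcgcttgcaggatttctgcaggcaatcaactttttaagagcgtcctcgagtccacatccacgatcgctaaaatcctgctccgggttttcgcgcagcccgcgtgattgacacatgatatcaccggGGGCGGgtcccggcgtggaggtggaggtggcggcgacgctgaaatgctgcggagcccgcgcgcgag
The Spry1 sequence held no CArG box. Among 10 promoters of genes that are commonly induced through ERK, Egr1, Egr2 and Etv1 also held the box. The 109 genes with a CArG box and 20 or more reads had a median log2 fold of -0.02 between the libraries, near the 0.00 of all genes with that many reads.

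The other motifs were searched on both strands, and matches to different motifs may overlap. The AP-1 site (TGACTCA or TGAGTCA), present in 4.53% of promoters, the CRE (TGACGTCA), in 1.91%, the ETS site (CCGGAAG), in 9.22%, and the TATA box (TATAAA), in 14.3%, matched 0 of the 9 member promoters. The EGR site (GCGGGGGCG or GCGTGGGCG), in 3.31% of promoters, matched Dusp8, 22 to 14 bases before the start. The GC box matched 7 of 9 members, all but Dusp6 and Dusp8, against 34.9% of all promoters. The members' promoters were rich in G and C, from 56.0% in Spry4 and Spred2 to 81.0% in Dusp7, where the median of all promoters was 52.3%. These matches describe the letters in the windows and show no binding.

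The libraries held 20917968 (untreated) and 26268330 (IgE) counted reads. All 10 mast cell and basophil markers on the list were present in both, with summed levels of 8002 and 8302 CPM (read counts divided by the TMM-scaled library total). Of 16 markers of other cell types, 9 were in the table, with summed levels of 368.9 and 331.7 CPM, most of it from the collagen gene Col3a1 at 281.3 and 252.8 CPM. The myeloid integrin gene Itgam was at 66.0 and 57.6 CPM and the B cell gene Cd79a had 214 and 296 reads, while the macrophage markers Csf1r and Cd68 had at most 46 reads in a library.

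Read against all genes, the members were moved in both directions and by less than 2-fold. None of the 10 members was at least 2-fold higher or lower in the IgE library, whereas 1.33% of the 12102 genes with 20 or more reads passed that rule upward and 1.3% downward (0.203% and 0.145% of the 10367 genes with 100 or more reads). By a 1.5-fold rule Spry1 was higher and 0 members were lower, against 3.66% and 3.53% of all genes. The log2 fold was above 0 for 7 members, against 51.1% of all genes, and below 0 for Dusp7, Dusp8 and Spred2. The median log2 fold of the members was 0.18, against 0.00 for all genes. A counting interval, the exact 95% interval of the read ratio, covers counting error alone and not variation between cultures. It lay above no change for 6 members and below it for 2, while 20% and 18.6% of all genes did so (21.8% and 20.1% of genes with 100 or more reads). In either direction this made 8 members, against 38.5% of all genes. The share of members above was thus larger than the background and the share below close to it. The members were chosen with earlier results of these data known, so these shares describe the members and test nothing. The interval is narrower for genes with more reads, which affects these shares.

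**Figure D1:**
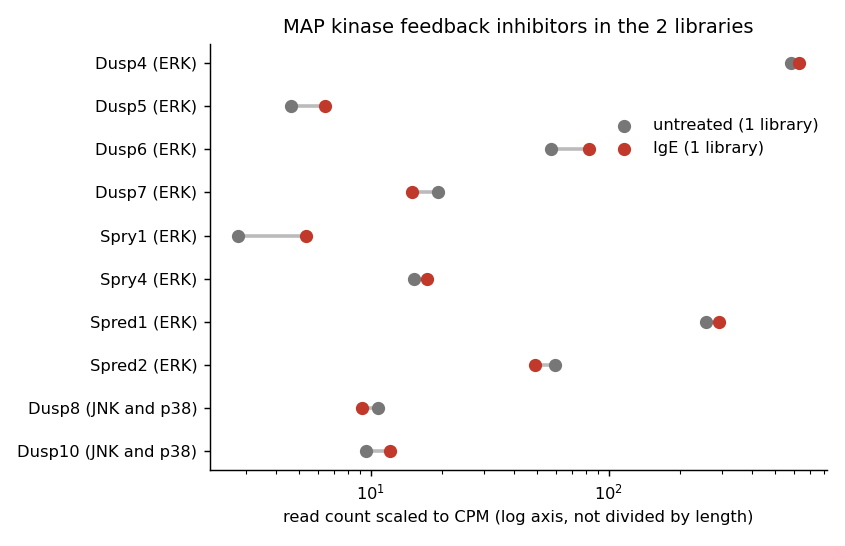
Level of each member in CPM (log axis, not divided by transcript length) in the untreated (grey) and IgE (red) library, 1 library each. The red point lies to the right of the grey one for 7 members and to the left for Dusp7, Spred2 and Dusp8, and the widest gap is that of Spry1, from 2.76 to 5.35 CPM.

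Levels are given below in CPM for comparison between libraries, and they do not rank the genes against each other because transcript length was not taken into account. Among the phosphatases of ERK, the nuclear pair was higher in the IgE library. Dusp4, a nuclear phosphatase, had 12190 reads untreated and 16561 with IgE, or 580.9 and 632.5 CPM. This was a log2 fold of 0.12 (counting interval 0.09 to 0.16), a 1.09-fold difference, and 24.7% of the genes with 100 or more reads had a higher one. Dusp5, the nuclear phosphatase that acts on ERK alone, had 97 and 168 reads, or 4.62 and 6.42 CPM. Its log2 fold of 0.47 (0.10 to 0.85) was larger than that of Dusp4 but rested on few reads, and its interval included the value of Dusp4. Dusp5 was higher in the IgE library by 1.39-fold, and 2.23% of genes had a higher log2 fold.

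The cytoplasmic phosphatases of ERK, Dusp6 and Dusp7, differed in opposite directions. Dusp6 had 1200 reads untreated and 2155 with IgE, or 57.2 and 82.3 CPM, a 1.44-fold difference with a log2 fold of 0.53 (0.42 to 0.63). Of the genes with 100 or more reads, 1.61% had a higher log2 fold. Among the 5079 genes with 2000 or more reads, a limit set after the values were seen, it was the 13th highest. Dusp7 had 400 and 391 reads, or 19.1 and 14.9 CPM, since the IgE library was the deeper one. Its log2 fold of -0.35 (-0.56 to -0.15) was the lowest of the members, a level 1.28-fold lower with IgE, and 3.28% of genes with 100 or more reads had a lower one.

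The Sprouty genes were both higher in the IgE library by estimate, but only the interval of Spry1 lay clear of no change. Spry1, an inhibitor of signalling from receptor tyrosine kinases to ERK, had 58 reads untreated and 140 with IgE, or 2.76 and 5.35 CPM. The 1.93-fold difference, a log2 fold of 0.95 (0.50 to 1.42), was the 24th highest among 10367 genes with 100 or more reads. Its interval reached from well below to above 2-fold. Spry4, a related inhibitor, had 319 and 449 reads, or 15.2 and 17.2 CPM, with a log2 fold of 0.17 (-0.04 to 0.39). At this depth a difference in Spry4 was not detectable.

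The Spred genes, which encode membrane-associated inhibitors of Ras to ERK signalling, went opposite ways. Spred1 had 5351 reads untreated and 7623 with IgE, or 255.0 and 291.1 CPM, a log2 fold of 0.19 (0.14 to 0.24). Spred2 had 1251 and 1283 reads, or 59.6 and 49.0 CPM, a log2 fold of -0.28 (-0.40 to -0.17). The level of Spred2 was 1.22-fold lower with IgE, and 5.68% of genes with 100 or more reads had a lower log2 fold. Among the 5079 genes with 2000 or more reads Spred2 was the 69th lowest and Spred1 the 431st highest. The difference in Spred1 was smaller in size than that in Spred2, and 15.2% of genes with 100 or more reads had a higher log2 fold than Spred1.

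**Figure D2:**
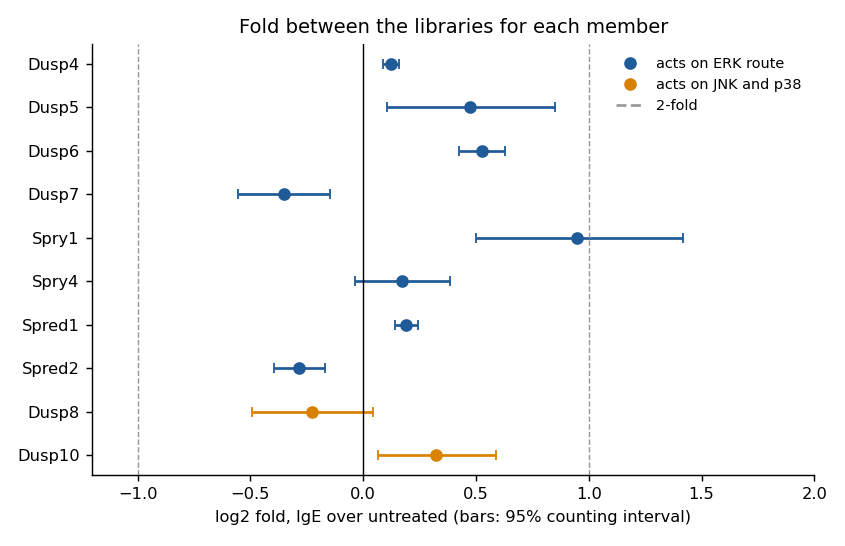
Log2 fold of each member (IgE over untreated, 1 library each) with its 95% counting interval, in blue for genes acting on the ERK route and in orange for JNK and p38. Intervals lie above 0 for Dusp4, Dusp5, Dusp6, Spry1, Spred1 and Dusp10 and below 0 for Dusp7 and Spred2, and those of Spry4 and Dusp8 span 0.

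The phosphatases directed at the stress-activated kinases JNK and p38 also split. Dusp10, which limits JNK and p38 in immune cells, had 201 reads untreated and 314 with IgE, or 9.58 and 12.0 CPM, a log2 fold of 0.32 (0.06 to 0.59). Dusp8 had 225 and 240 reads, or 10.7 and 9.17 CPM, a log2 fold of -0.23 (-0.49 to 0.04). The interval of Dusp8 spanned no change, so a difference was not detectable for it. Grouped by target kinase, the 8 genes of the ERK route had a median log2 fold of 0.18, with 5 intervals above no change, 2 below and 1 across it. The 2 genes directed at JNK and p38 had a median of 0.05, between values of opposite sign, and with Dusp4, which also acts on these kinases, the median was 0.12. With 2 genes in the second group the medians give no order of the groups, and the difference between them was not tested.

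**Figure D3:**
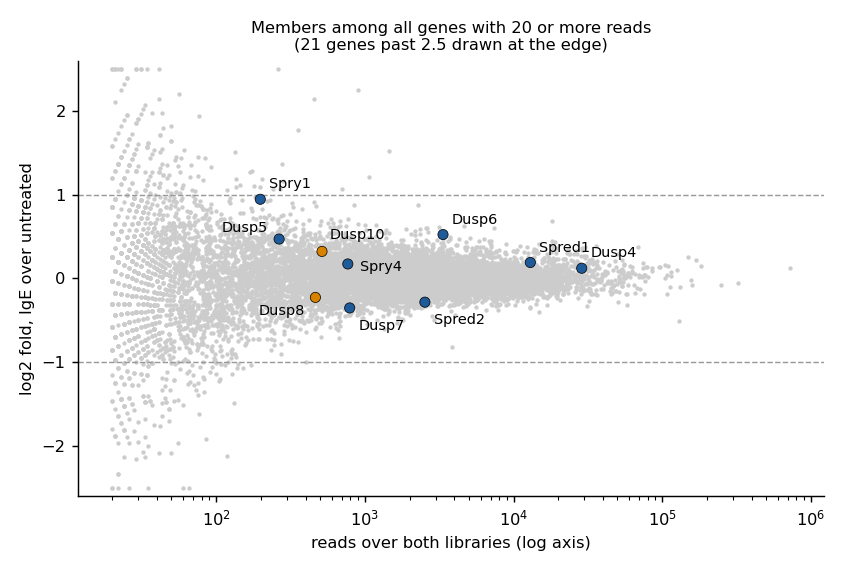
Log2 fold (IgE over untreated) against the reads of both libraries (log axis) for all 12102 genes with 20 or more reads (grey), with the members in colour (blue for the ERK route, orange for JNK and p38) and dashed lines at 2-fold. Spry1 and Dusp6 lie at the upper edge of genes with like numbers of reads and Spred2 at the lower edge, while Dusp4 and Spred1 are within the bulk. The 21 genes past a log2 of 2.5 are drawn at the edge.

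Because each member has a close relative among the others, their balance can be read within each library as a ratio of reads, which does not depend on how the libraries are scaled. The 5 pairs were set after the values were seen, with the gene of the higher fold first, so that their common direction is fixed by that choice. The sizes restate how far apart the folds given above lie, and they test nothing. There were 3.0 reads of Dusp6 for each read of Dusp7 in untreated cells and 5.51 with IgE. This is a ratio of 1.84 between the libraries (counting interval 1.57 to 2.15), the largest of the pairs by estimate. Spry1 over Spry4 went from 0.182 to 0.312, a ratio of 1.72 (1.21 to 2.45). Dusp10 over Dusp8 went from 0.893 to 1.31, a ratio of 1.47 (1.13 to 1.903). For Spred1 over Spred2 the values were 4.28 and 5.94, a ratio of 1.39 (1.27 to 1.51). For Dusp5 over Dusp4 the interval included 1, at a ratio of 1.27 (0.986 to 1.66). No share of pairs over all genes was computed, so the number of pairs clear of 1 is not read as a result about these genes.

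**Figure D4:**
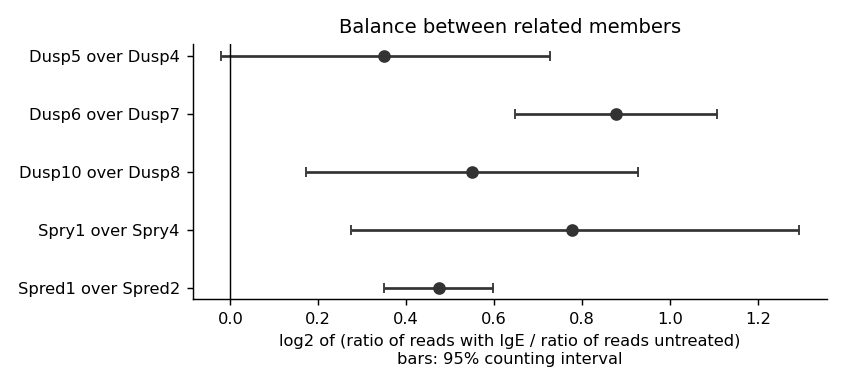
Log2 of the ratio of reads of related members with IgE divided by the same ratio in untreated cells, with 95% counting intervals, 1 library each. The gene of the higher fold was put first in each pair, which fixes the direction. The interval lies above 0 for all pairs but Dusp5 over Dusp4, and the point of Dusp6 over Dusp7 lies farthest right, at 0.88.

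In the authors' deposited table, the lowest adjusted p-values among the members were 0.262 for Spry1 and 0.606 for Dusp6, and that of every other member was 1. The unadjusted p-values of Spry1 and Dusp6 in the authors' deposited table were 0.00207 and 0.0147. These deposited p-values were recomputed to within 3.47e-08 with edgeR's exact test at a dispersion of 0.01, a coefficient of variation of 0.1 between replicates, which is an assumed value and was not measured.

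Further MAP kinase phosphatases and Sprouty or Spred genes were close to level. Dusp16, another phosphatase of JNK and p38, had 868 and 1110 reads and a log2 fold of 0.04 (-0.09 to 0.17). Spred3 had 77 and 93 reads and a log2 fold of -0.05 (-0.50 to 0.41). This wide interval included the estimates of Dusp10 and Dusp7, so Spred3 was not shown to be level. Dusp2, a nuclear phosphatase of immune cells, had 4 and 3 reads, and Spry3 had 5 and 8, too few for a fold. Dusp1, Dusp9 and Spry2 were not analysed here. Of 9 measured atypical members of the family (8 Dusp genes and Styx), small proteins without the kinase-binding domain, Dusp14 was at least 2-fold higher, on 16 and 44 reads (log2 fold 1.12, 0.29 to 2.06). It was followed by Dusp22, with 29 and 56 reads (0.62, -0.04 to 1.33). The lowest were Dusp19 (-0.11) and Dusp23 (-0.08), and the list median was 0.11. Of all genes with 20 or more reads, 1.33% were at least 2-fold higher, and of those with 100 or more reads 0.203%. Folds of that size were thus more frequent where reads were few, as for Dusp14.

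The kinases and adaptors that these inhibitors restrain spanned a narrower range of log2 folds than the inhibitors. Of 16 measured genes of the Ras to ERK cascade, 0 differed by 2-fold, and the log2 folds ran from -0.18 for the Ras activator Rasgrp4 and -0.13 for the ERK kinase Map2k2 to 0.05 for the exchange factor Sos1 and 0.19 for Hras. The list median was -0.01. Of 15 measured genes of the JNK and p38 cascade, 0 differed by 2-fold, from the upstream kinases Map3k4 (-0.11) and Map3k5 (-0.09) to Mapkapk3 (0.17), a kinase downstream of p38, and Mapk9 (0.19), which encodes JNK2. The list median was 0.00. Among 10 known partners of Sprouty and Spred proteins, the log2 folds ran from -0.21 for the kinase Tesk1 and -0.12 for the phosphatase subunit Ppp2ca to 0.00 for Ppp2r1a and 0.16 for Cav1, with a median of -0.04. Counting intervals lay above no change for 1, 4 and 0 genes of these 3 lists and below it for 5, 3 and 3. Of all genes with 20 or more reads, 20% lay above and 18.6% below. By the 2-fold rule, 1.33% of all genes with that many reads were higher in the IgE library and 1.3% lower. The counts of 0 in the 2 cascades lie near these shares.

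Genes commonly induced through the same kinases were mostly above 0, by estimate 10 of 14 for ERK and 7 of 8 for JNK and p38. Of all genes with 20 or more reads, 51.1% were above 0. By the 2-fold rule, 1.33% of all these genes were higher in the IgE library and 1.3% lower. Counting intervals lay above no change for 20% of all genes and below it for 18.6%. Whether the kinases moved the listed genes was not tested. Of 14 measured genes induced through ERK, the zinc-finger genes Egr3 and Egr1 had log2 folds of 1 or more. Egr1 had 274 and 796 reads (1.22, 1.02 to 1.42). Egr3 had 1 and 33 reads (4.22, 2.15 to 10.07), so that its fold rests on a single untreated read and it passed the minimum of reads only through the IgE library. The lowest were Ccnd1 (-0.30) and Etv4 (-0.23). The median of the genes induced through ERK was 0.16, with 5 counting intervals above no change, 1 below and 8 across it. Of 8 measured genes induced through JNK or p38, 0 differed by 2-fold, the highest being Tnf (0.92, 21 and 50 reads) and the mRNA decay factor Zfp36 (0.38) and the lowest Jun (-0.03) and Atf3 (0.01). Their median was 0.28, with 5 intervals above no change, 0 below and 3 across it.

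The cytosolic ribosomal protein genes and mitochondrial genome transcripts that were listed as context also lay above 0. Of all genes with 20 or more reads, 51.1% did so. Of 30 listed cytosolic ribosomal protein genes, 29 were in the table, every one with a log2 fold above 0. These 29 had a median of 0.24 and took 1.80% of untreated and 2.08% of IgE reads. Ribosomal protein genes outside the list were not counted. All 13 mitochondrial genome transcripts were above 0, with a median of 0.16, and took 3.41% and 3.79%. The part of this shift in the members' median of 0.18 was not tested. Rps12 (0.47) was the highest of the listed ribosomal protein genes. By estimate, the log2 folds of Spry1, Dusp6 and Dusp5 were as high as or higher than that of Rps12. The counting intervals of Dusp6 (0.42 to 0.63) and Dusp5 (0.10 to 0.85) included 0.47. That of Dusp5 also included the ribosomal list median of 0.24. Mt-nd3, the highest of the mitochondrial transcripts, was at 0.61, above Dusp6 and Dusp5 and below Spry1. Dusp7, Dusp8 and Spred2 lay on the other side of 0.

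**Figure D5:**
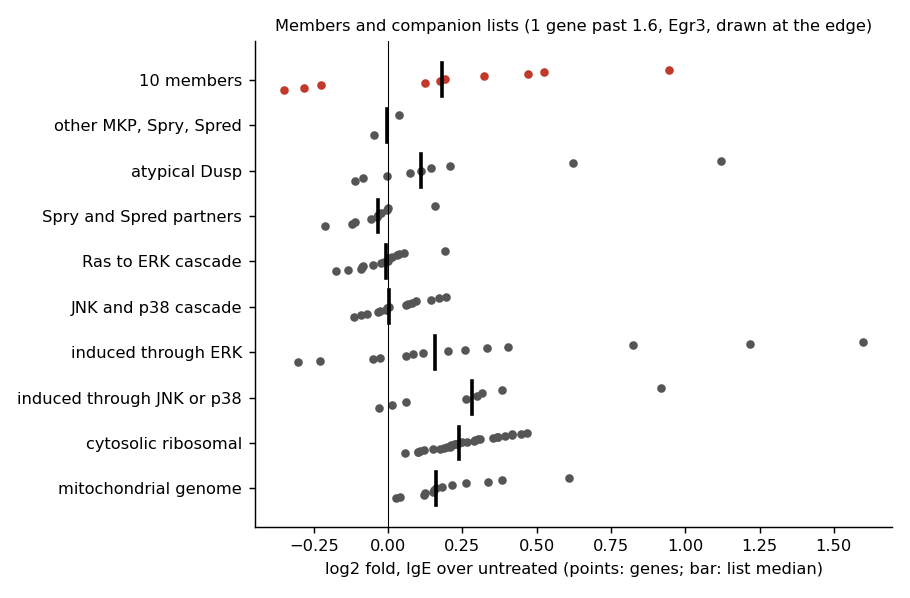
Log2 folds (IgE over untreated, 1 library each) of the members (red) and of the genes of each companion list with 20 or more reads (grey), with black bars at the list medians. Members run from -0.35 to 0.95, the Ras to ERK cascade from -0.18 to 0.19, and the listed ribosomal protein genes from 0.06 to 0.47. Egr3, at 4.22, is drawn at the edge.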

How the data were processed

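Poly(A)-selected RNA of 1 untreated and 1 IgE-treated culture was sequenced. The authors deposited unnormalised read counts for each gene name. Beside these counts the authors deposited a log2 fold change and a p-value, raw and adjusted, per the file headers. Upstream tools in the submitters' processing notes were HISAT2 2.1.0, fastp 0.23.0 and DESeq2 1.18.1, and the build was rn6, with no roles stated. How reads were counted, and with what strand setting, is not given in the sources used here, so reads of overlapping genes cannot be separated. Of 16990 rows, 14913 distinct names were kept, the rest being identical repeats. CPM and log2 folds (IgE over untreated) came from edgeR 4.0.16 in R 4.3.3, run on the whole table (TMM scaling, prior count 0.5), and the background was counted over genes whose reads summed to 20 or more. Intervals are exact Clopper-Pearson 95% intervals of the read ratio, and for pairs of genes exact conditional intervals of the odds ratio. Both cover counting error only. The calculation was tested on simulated data. The members and lists were chosen with earlier results of these data known. All members were named, with the 2 highest and 2 lowest genes of each companion list and every gene of the list of further MAP kinase phosphatases, Sprouty and Spred genes. Markers, ribosomal and mitochondrial genes were added as context. One gene of a companion list is not reported here. As alternatives, TMM was replaced by plain totals or by size factors from DESeq2 1.42.0, the prior was raised to 5 counts, the minimum was dropped or raised to 100 reads, the size rule was lowered to 1.5-fold, and lists had a member left out or added.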

Additional observations from a re-analysis of the deposited data

How the results depend on the processing

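The number of members at least 2-fold apart was 0 with library totals, with DESeq2 size factors and with the prior raised to 5 counts, and it was 1 by a 1.5-fold rule. Every member had 198 or more reads, so dropping the minimum or raising it to 100 reads could change no value of the members and says nothing about stability. The number of members with a counting interval clear of no change was 8 under each of the 3 scalings. All 30 alternative log2 folds of single members stayed within the counting interval, with a largest shift of 0.045, and Spry1 was at 0.90 with a prior of 5 counts. Library totals moved the median of all genes by -0.0092 and DESeq2 size factors by -0.0025. The prior acts mainly on genes with few reads, whose intervals are wide. Under these alternatives the folds, interval counts and medians were thus nearly fixed in advance, and their holding says little about stability. The medians of all members, of the ERK-directed and of the JNK and p38 directed members stayed within the median bounds of their members' counting intervals under each alternative, the last at 0.12 with Dusp4. The medians of companion lists were not run under alternatives. No paired analysis was possible because there is a single library per condition, and leaving one out would leave no comparison. Depth limits Spry1, Dusp5, Dusp8 and Dusp10 most, and variation between cultures was not measured.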
